A study of Mus musculus with 18 samples.

Results

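Mitophagy receptors are proteins on mitochondria that bind the autophagosome membrane and so hand a mitochondrion over for degradation. The 7 mouse genes described here are Bnip3 and Bnip3l, Fundc1, Bcl2l13, Pink1, and the namesakes Bnip1 and Bnip2. They were read by every array probe whose transcript accession maps to 1 of these RefSeq symbols, which gave 13 of the 39429 probes: 3 for Bnip3, 4 for Bnip3l, 2 for Bnip2 and 1 for each of the others. All 13 were well above background in all 18 samples and entered the test. Probe 1 of a gene is its brightest, and it stands for the gene wherever genes are counted.

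The arrays measured RNA of macrophages grown from femur marrow of male C57BL/6J mice aged 8 weeks by 7 days of culture with macrophage colony stimulating factor. The knockout mice lacked PHD3, the oxygen-sensing prolyl hydroxylase encoded by Egln3, and the label gives their genotype as PHD3-/- with no further allele, promoter or Cre named. The 6 groups, of 3 samples each, were knockout at oxygen 1, wild type at oxygen 1, knockout starved, wild type starved, knockout control and wild type control. Starved and control cells were labelled oxygen 20, and both oxygen values carry no unit. Cells at oxygen 1 were labelled as normally fed. The design text names 3 mice each, the treatment field calls the animals untreated, and no label says whether cells or mice were starved.

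BNIP3 and its homologue BNIP3L, also called NIX, sit in the outer mitochondrial membrane and bind LC3-family proteins directly. Both genes are known targets of hypoxia-inducible factor (HIF), and NIX is known for clearing mitochondria from maturing red cells. FUNDC1 is an outer-membrane receptor that is known to be switched on in hypoxia by dephosphorylation rather than by transcription, and BCL2L13 is a mammalian receptor that can stand in for yeast Atg32. PINK1 is a kinase that accumulates on damaged mitochondria and phosphorylates ubiquitin there, which marks them for autophagy. BNIP1 shares the name of the family and is a SNARE of the syntaxin 18 complex at the endoplasmic reticulum, whereas BNIP2 is an adaptor protein with a BCH domain.

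The start regions of 6 of the 7 genes were matched in a RefSeq table of the GRCm38.p6 build, in windows from 250 bases before to 50 bases after each gene's start (300 bases). The windows were searched on both strands for ACGTG and GCGTG, the core letters of HIF sites, where CACGTG counts once on each strand as ACGTG. Of all 32851 windows in that table, 43.8% held at least 1 of these cores and 1.66% held 5 or more. The Bnip3 window (minus strand) and the Bnip1 window (plus strand) are shown because each held 5 matches. The Pink1 window (minus strand) is shown as an example of the windows that held 1. Capitals mark the matched letters.
Bnip3, chr7:138909457-138909756: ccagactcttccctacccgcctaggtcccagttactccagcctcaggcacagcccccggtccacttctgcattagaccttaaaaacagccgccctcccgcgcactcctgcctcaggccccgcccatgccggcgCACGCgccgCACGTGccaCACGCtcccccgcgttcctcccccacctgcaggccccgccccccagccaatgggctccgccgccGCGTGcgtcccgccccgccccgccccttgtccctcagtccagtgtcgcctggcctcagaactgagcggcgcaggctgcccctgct
Bnip1, chr17:26780829-26781128: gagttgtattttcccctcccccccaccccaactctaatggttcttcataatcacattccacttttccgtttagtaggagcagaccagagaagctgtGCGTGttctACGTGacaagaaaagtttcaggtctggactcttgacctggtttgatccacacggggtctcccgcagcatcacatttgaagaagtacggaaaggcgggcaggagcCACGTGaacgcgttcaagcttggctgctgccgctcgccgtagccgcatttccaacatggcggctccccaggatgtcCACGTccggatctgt
Pink1, chr4:138326247-138326546: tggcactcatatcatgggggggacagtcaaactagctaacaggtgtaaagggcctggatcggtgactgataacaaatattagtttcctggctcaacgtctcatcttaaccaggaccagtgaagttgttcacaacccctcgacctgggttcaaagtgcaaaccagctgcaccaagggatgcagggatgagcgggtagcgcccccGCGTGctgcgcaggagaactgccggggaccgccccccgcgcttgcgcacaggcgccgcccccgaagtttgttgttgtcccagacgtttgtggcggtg
In the Bnip3 window the CACGTG begins 108 bases before the start, and in the Bnip1 window it begins 41 bases before it. CACGTG stood in 7.15% of all windows. Bcl2l13 and each of the 2 Bnip2 windows held 1 match and Fundc1 held 0. The motif GTAAACA, the core letters of FOXO sites, stood in none of the members' windows and in 3.65% of all windows. Bnip3l was not in the table. A match describes the letters only.

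Across the series, the 20 arrays lay on 5 slides and each had 43020 spots, of which 56.1% to 65.4% were well above background and 0 were saturated. Samples of 1 group correlated at r = 0.989 to 0.994 over the tested probes. Wild type control replicate 1, knockout control replicate 3 and wild type starved replicate 3 stood apart from the rest in an earlier look at these data. By mean correlation with their own group (0.9917, 0.9908 and 0.9902) they were not the lowest. The lowest were wild type oxygen 1 replicates 2 (0.9891) and 3 (0.9893). Values without the 3 samples that stood apart are given where they touch a result. The macrophage label was checked with 8 markers, of which 7 were tested and were well above background in every sample. Their summed linear level, in multiples of the array's 75th percentile, was 332 to 371 in knockout and 371 to 404 in wild type cells at oxygen 1, 278 to 313 and 335 to 369 in the starved groups, and 266 to 299.6 and 316 to 361 in the controls. Taken singly, 0 of the 7 were called between the genotypes in any condition. Their median knockout minus wild type log2 differences were -0.064 at oxygen 1, -0.077 in starved cells and -0.030 in controls. Lyz2, 1 of the 7, is described under other observations. In each genotype 2 of the 7 rose and 2 fell at oxygen 1, and 1 rose and 0 fell under starvation. Of the erythroid markers, 3 of 7 were tested, and Alas2, Epb42 and Rhag were too dim to be tested. With both genotypes together, the 3 summed to 0.040 to 0.083 at oxygen 1, 0.036 to 0.057 in starved cells and 0.028 to 0.20 in controls. Neutrophil markers (8 tested, knockout before wild type) summed to 21.7 to 31.7 and 24.9 to 34.9 at oxygen 1. They summed to 13.5 to 20.2 and 19.0 to 25.8 in starved cells, and 20.9 to 32.5 and 29.9 to 33.4 in controls. By gene, 4 of the 8 fell in knockout and 5 in wild type cells under each stress, and 0 rose. Their median log2 differences were -0.63 and -0.90 at oxygen 1 and -1.31 and -1.31 under starvation. Over all genes 39.9% and 38.7% were called at oxygen 1 and 13.5% and 12.5% under starvation. Of 4 lymphocyte markers tested, 2 fell and 0 rose in each genotype under each stress. Of 6 stromal and endothelial markers, 2 fell and 0 rose under starvation in each genotype. At oxygen 1, 1 of the 6 rose and 1 fell in knockout cells, and 2 rose and 0 fell in wild type cells. The part of these other cells in the results below was not tested.

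At oxygen 1, Bnip3 RNA was far above the controls in both genotypes. All levels below are log2 signals relative to the 75th percentile of the same array, so that 0 is that percentile and 1 unit is a doubling. Bnip3 probe 1 had log2 levels of 7.13, 6.82 and 6.62 in knockout cells at oxygen 1, against 2.19, 2.11 and 2.35 in knockout controls. In wild type cells it had log2 levels of 6.67, 6.54 and 7.01 at oxygen 1, against 2.15, 2.20 and 2.42 in controls. Every sample at oxygen 1 lay above every control, with a gap many times the spread inside either group.

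The log2 difference of Bnip3 probe 1 at oxygen 1 was 4.64 ± 0.14 (SE, 95% interval 4.33 to 4.95, 24.9-fold) in knockout cells, with a limma adjusted p of 9.33e-12. In wild type cells the log2 difference was 4.48 (4.18 to 4.79, 22.4-fold), with a limma adjusted p of 1.53e-11. By size of rise, probe 1 stood at rank 34 in knockout and rank 33 in wild type cells among the 25372 probes tested. In such bulk samples, fewer cells of a type and less RNA per cell cannot be told apart.

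The other Bnip3 probes also rose at oxygen 1 in both genotypes. Probe 2 had log2 differences of 4.76 (27.0-fold) in knockout and 4.85 (28.9-fold) in wild type cells. Probe 3 had log2 levels of 1.66, 1.60 and 1.61 in knockout cells at oxygen 1, against -3.15, -3.20 and -3.37 in knockout controls, and 1.22, 1.49 and 1.56 in wild type cells at oxygen 1, against -3.22, -3.15 and -3.22 in wild type controls. Its log2 differences were 4.86 (29.1-fold) and 4.62 (24.5-fold), so that the 3 probes spanned 22.4-fold to 29.1-fold. Within single slides, the probe 1 log2 difference was 4.42 to 5.22 over the 3 slides that held both knockout groups and 4.39 in the 1 slide that held both wild type groups. Those 3 slides share samples, since knockout oxygen 1 replicate 1 and knockout control replicate 1 each lay on 2 of them. The knockout ranges within slides given below for oxygen 1 against controls have the same limit.

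Under starvation Bnip3 differed little from controls, and no probe passed the test. Bnip3 probe 1 had log2 levels of 2.53, 2.43 and 2.54 in starved knockout cells and 2.56, 2.30 and 2.55 in starved wild type cells, next to the controls given above. The knockout samples were all above their controls and the wild type samples overlapped theirs. The log2 difference was 0.29 (95% interval -0.024 to 0.60, adjusted p = 0.237 by limma) in knockout and 0.21 (adjusted p = 0.43 by limma) in wild type cells. Neither passed the test, and neither did probes 2 and 3, whose log2 differences ran over 0.066 to 0.17. Probe 3 was higher in every starved sample than in every control of its genotype, by log2 differences of 0.16 in knockout and 0.17 in wild type cells. Without the 3 samples that stood apart, the probe 2 log2 difference was 0.34 (adjusted p = 0.326 by limma) in knockout and 0.045 (adjusted p = 0.92 by limma) in wild type cells, and leaving out single samples it ran over -0.10 (without knockout control replicate 1) to 0.34 (without knockout control replicate 3) and over -0.15 (without wild type starved replicate 3) to 0.27 (without wild type control replicate 1). Probe 2 read 2.17, 2.05 and 2.19 in the 3 samples that stood apart, against 1.30 to 1.72 in the other control and starved samples.

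**Figure D1:**
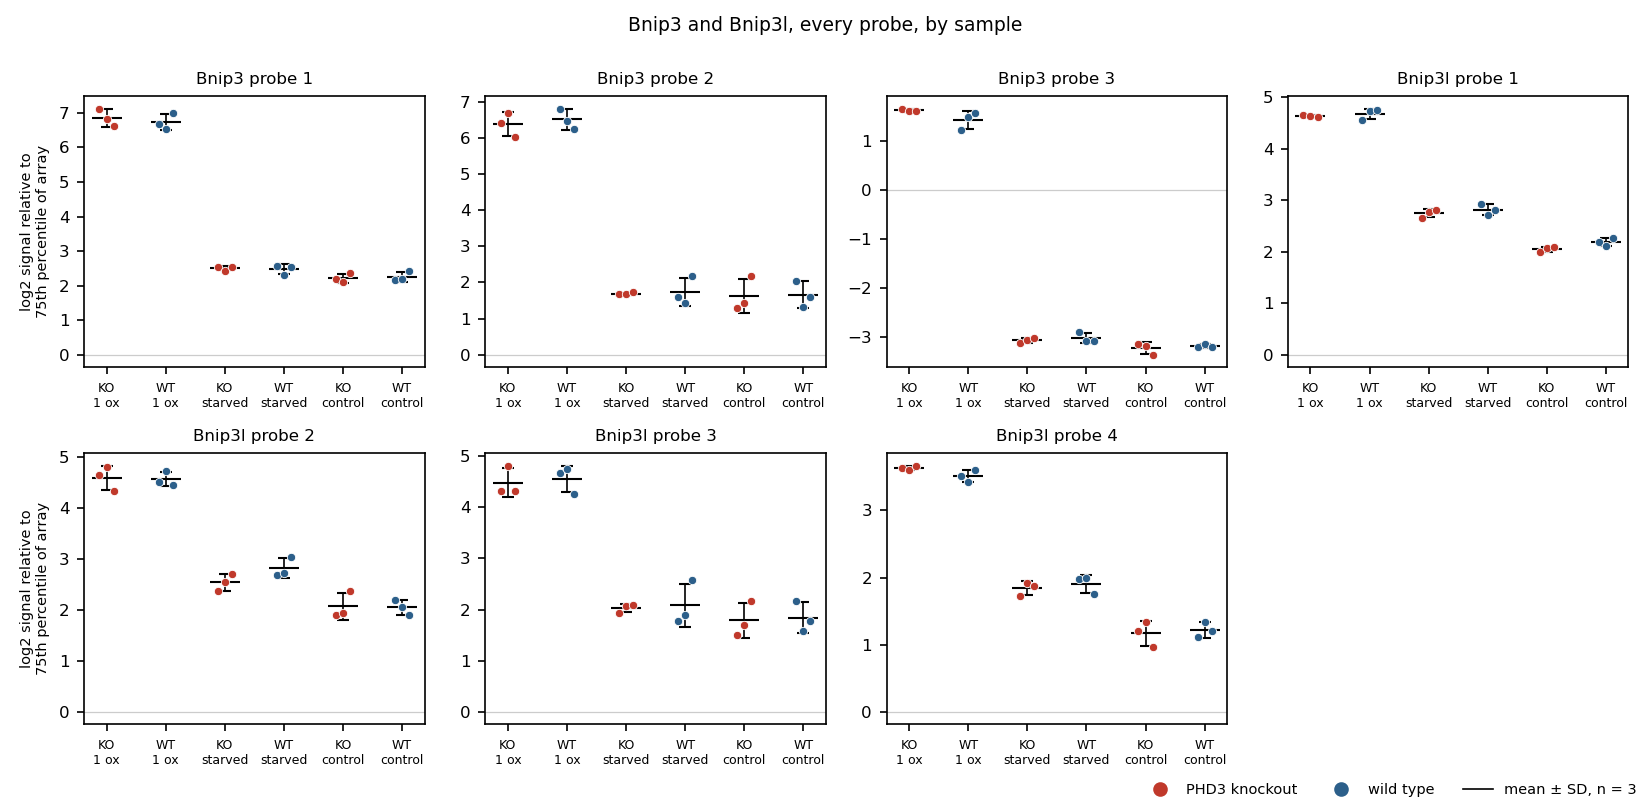
Log2 level relative to the array's 75th percentile (vertical axes) of the 3 Bnip3 and 4 Bnip3l probes in the 6 groups, with each of the 3 samples of a group as a point and the group mean as a bar. Bnip3 probe 1 sits at 6.54 to 7.13 at oxygen 1 and at 2.11 to 2.56 in starved and control samples, whereas Bnip3l probe 1 has a middle step in starved cells.

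Bnip3l, the gene of NIX, rose under both stresses, less at oxygen 1 than Bnip3 did. Probe 1 had log2 levels of 4.65, 4.64 and 4.61 in knockout cells at oxygen 1, 2.66, 2.77 and 2.82 in starved knockout cells and 1.99, 2.06 and 2.09 in knockout controls. Wild type cells had log2 levels of 4.57, 4.73 and 4.75 at oxygen 1, 2.93, 2.72 and 2.81 when starved and 2.18, 2.11 and 2.26 in controls. In both genotypes the 3 conditions formed 3 separate steps with no overlap.

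For Bnip3l probe 1 at oxygen 1 the log2 difference from controls was 2.59 ± 0.086 (SE, 95% interval 2.41 to 2.77, 6.02-fold, limma adjusted p = 1.75e-11) in knockout cells. It was 2.50 (5.65-fold, limma adjusted p = 2.59e-11) in wild type cells. Over its 4 probes the increase was 4.9-fold to 6.62-fold, and all 8 tests passed. Within slides the probe 1 log2 difference was 2.56 to 2.68 in knockout cells and 2.55 in wild type cells.

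Starved cells had a Bnip3l probe 1 log2 difference from controls of 0.70 ± 0.086 (SE, 95% interval 0.52 to 0.89, 1.63-fold, limma adjusted p = 6.4e-05) in the knockout. The wild type value was 0.63 (0.45 to 0.82, 1.55-fold, limma adjusted p = 0.000167). It was 0.70 to 0.73 within slides in knockout cells and 0.55 to 0.75 in wild type cells. With another background correction (normexp), the wild type value fell to 0.45 and missed the threshold (adjusted p = 0.111).

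The 4 Bnip3l probes did not all give that starvation call. Probe 4 rose by log2 differences of 0.67 (1.59-fold, limma adjusted p = 0.000731) in knockout and 0.69 (1.61-fold, limma adjusted p = 0.000605) in wild type cells. Probe 2 rose in wild type cells (0.77, 1.7-fold, limma adjusted p = 0.00476), and its knockout log2 difference of 0.47 missed the threshold (adjusted p = 0.0688). Without the 3 samples that stood apart the knockout value was 0.62 with an adjusted p of 0.0186, and without knockout control replicate 3 alone its adjusted p was 0.0229. Probe 3 had a log2 difference of 0.24 in each genotype (adjusted p = 0.596 in knockout and 0.609 in wild type cells by limma), and in the 3 samples that stood apart it read 2.17, 2.17 and 2.57 against 1.51 to 2.09 in the other control and starved samples. Without those 3 samples its log2 difference was 0.43 (adjusted p = 0.155 by limma) in knockout and 0.17 (adjusted p = 0.641 by limma) in wild type cells. Leaving out single samples, it ran over 0.097 (without knockout control replicate 1) to 0.43 (without knockout control replicate 3) in knockout cells, and over -0.000501 (without wild type starved replicate 3) to 0.41 (without wild type control replicate 1) in wild type cells.

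The 2 receptors were then set against each other by taking the Bnip3 minus Bnip3l difference of their probes 1 within each array, which cancels any shift of the whole array. Its change at oxygen 1 against controls was 2.05 log2 units in knockout and 1.99 in wild type cells, so that Bnip3 increased more. Under starvation its change was -0.42 log2 units in knockout and -0.42 in wild type cells. By these 2 probes the shift ran the other way, toward Bnip3l. In each of these 4 comparisons the 3 samples of a group lay wholly on 1 side of the other 3, and the exact two-sided permutation p was 0.1, the smallest that 3 against 3 can give. Over the alternatives tried, the change at oxygen 1 was 1.92 to 2.16 in knockout cells and 1.85 to 2.11 in wild type cells. The change under starvation was -0.48 to -0.29 and -0.51 to -0.38. Other pairs of probes were not taken. Under starvation Bnip3l probe 3 had log2 differences of 0.24 in each genotype, near the 0.29 and 0.21 of Bnip3 probe 1. The starvation shift is therefore given for probes 1 only.

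Fundc1 did not change detectably under either stress. It had log2 levels of 1.53, 1.85 and 1.78 in knockout cells at oxygen 1, 2.07, 1.93 and 2.04 in starved knockout cells and 1.71, 1.69 and 1.62 in knockout controls. In wild type cells the log2 levels were 1.62, 1.37 and 1.85 at oxygen 1, 1.77, 1.90 and 1.999 when starved and 1.77, 1.77 and 1.94 in controls. Each stressed group overlapped its controls except starved knockout cells, which lay above theirs.

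The log2 difference of Fundc1 at oxygen 1 was 0.047 (95% interval -0.21 to 0.31, adjusted p = 0.789 by limma) in knockout cells and -0.22 (-0.48 to 0.041, adjusted p = 0.174 by limma) in wild type cells, so that a rise of the size seen for Bnip3 or Bnip3l lay outside both intervals. The wild type value was -0.34 with an adjusted p of 0.0402 without wild type oxygen 1 replicate 3. Under starvation the log2 difference was 0.34 (adjusted p = 0.0798 by limma) in knockout and 0.059 (adjusted p = 0.842 by limma) in wild type cells. The knockout value passed when wild type oxygen 1 replicate 2 (adjusted p = 0.0435) or replicate 3 (adjusted p = 0.0478) was left out, which changes the shared estimate of spread and not the value.

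Bcl2l13 rose at oxygen 1 and was not called under starvation. Its log2 levels were -0.62, -0.55 and -0.55 in knockout cells at oxygen 1, against -1.51, -1.57 and -1.43 in knockout controls. Wild type cells had log2 levels of -0.72, -0.63 and -0.71 at oxygen 1, against -1.51, -1.35 and -1.51 in controls. The groups were well apart in both genotypes.

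That is a Bcl2l13 log2 difference of 0.93 ± 0.11 (SE, 95% interval 0.69 to 1.16, 1.9-fold, limma adjusted p = 1.02e-05) in knockout and 0.77 (0.54 to 1.01, 1.71-fold, limma adjusted p = 6.54e-05) in wild type cells. Within slides it was 0.84 to 0.98 in knockout and 0.88 in wild type cells. Starved cells differed from controls by log2 values of 0.14 (adjusted p = 0.489 by limma) in knockout and 0.077 (adjusted p = 0.764 by limma) in wild type cells.

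Pink1, the kinase, also rose at oxygen 1, with more scatter among the knockout samples. The log2 levels were 2.92, 2.65 and 2.07 in knockout cells at oxygen 1, against 1.28, 1.32 and 1.54 in knockout controls. In wild type cells they were 2.49, 2.86 and 2.59 at oxygen 1, against 1.43, 1.18 and 1.11 in controls. Neither pair of groups overlapped.

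The Pink1 log2 difference at oxygen 1 was 1.17 ± 0.20 (SE, 95% interval 0.74 to 1.60, 2.25-fold, limma adjusted p = 0.000311) in knockout and 1.41 (0.98 to 1.84, 2.66-fold, limma adjusted p = 6.6e-05) in wild type cells. Within slides it ran over 0.83 to 1.64 in knockout cells and was 1.43 in wild type cells. Under starvation it was 0.12 (adjusted p = 0.774 by limma) in knockout and 0.29 (adjusted p = 0.438 by limma) in wild type cells.

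**Figure D2:**
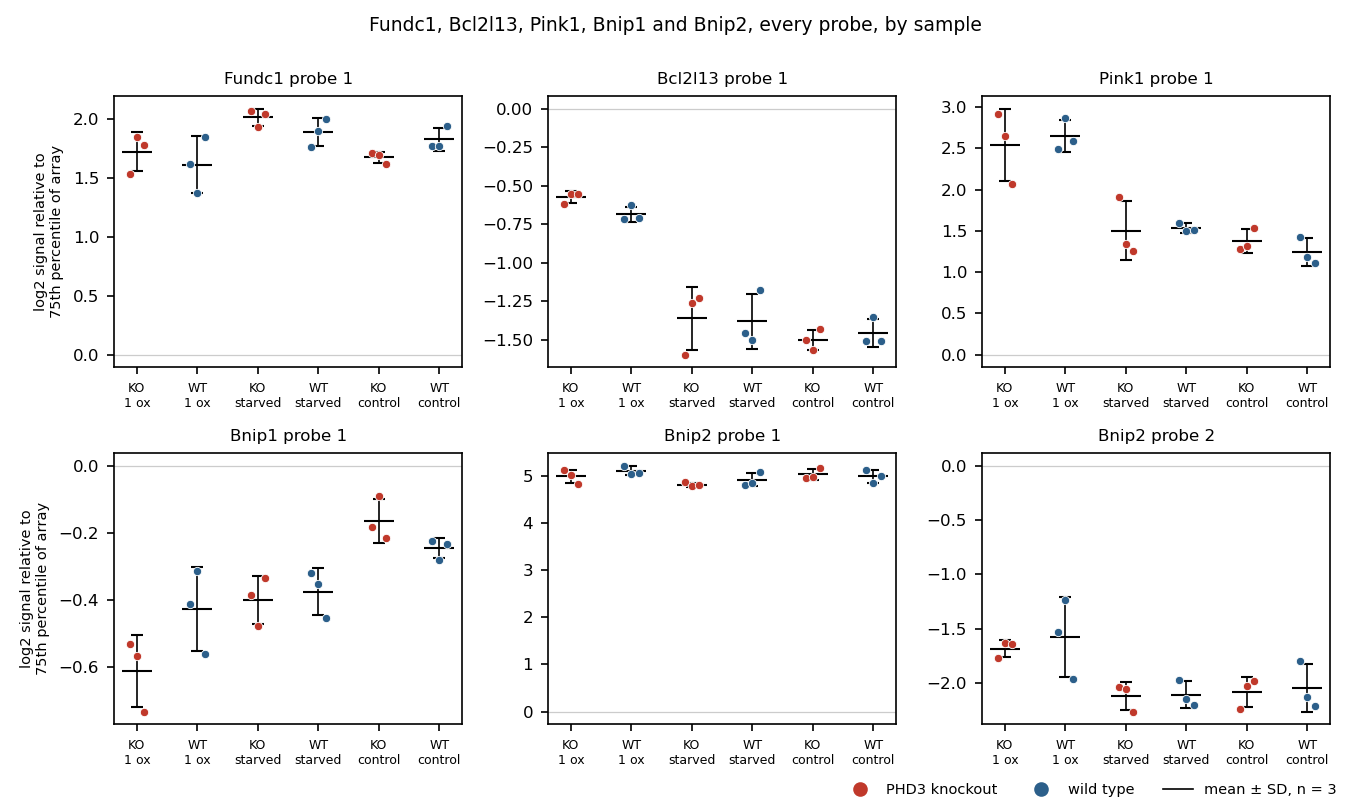
Log2 level relative to the array's 75th percentile (vertical axes) of the probes of Fundc1, Bcl2l13, Pink1, Bnip1 and Bnip2 in the 6 groups, with each of the 3 samples of a group as a point and the group mean as a bar. Bcl2l13 lies at -0.72 to -0.55 at oxygen 1 and at -1.18 or below elsewhere, and Pink1 lies above 2 at oxygen 1 and below 2 elsewhere.

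The remaining genes are the namesakes Bnip1 and Bnip2. Bnip1, the SNARE gene, had log2 levels of -0.53, -0.57 and -0.73 in knockout cells at oxygen 1, against -0.18, -0.091 and -0.22 in knockout controls. Wild type cells had log2 levels of -0.41, -0.31 and -0.56 at oxygen 1, against -0.22, -0.28 and -0.23 in controls. All samples at oxygen 1 were below all controls of their genotype, narrowly so in wild type cells.

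Bnip1 fell in knockout cells at oxygen 1, with a log2 difference of -0.45 ± 0.088 (SE, 95% interval -0.64 to -0.26, limma adjusted p = 0.000921). The wild type log2 difference of -0.18 (-0.37 to 0.0072, adjusted p = 0.12 by limma) did not pass. The difference between the genotypes' responses was -0.26 log2 units with an unadjusted p of 0.0523 and an adjusted p of 1 by limma, so the responses were not shown to differ. Within slides the log2 difference was -0.47 to -0.41 in knockout and -0.088 in wild type cells. Starvation gave -0.24 (adjusted p = 0.0988 by limma) and -0.13 (adjusted p = 0.436 by limma).

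The 2 Bnip2 probes, which are named through different RefSeq transcripts of the gene, disagreed. Probe 1 had log2 levels between 4.78 and 5.21 in all 18 samples, and its log2 difference at oxygen 1 was -0.041 in knockout (adjusted p = 0.796 by limma) and 0.12 in wild type cells (adjusted p = 0.425 by limma). The dim probe 2 had log2 levels of -1.53, -1.23 and -1.96 in wild type cells at oxygen 1, against -1.80, -2.13 and -2.21 in wild type controls, groups that overlapped. Its log2 difference of 0.47 passed narrowly (limma adjusted p = 0.03) and was lost under 7 of 27 alternatives, and its knockout log2 difference of 0.40 missed the threshold (adjusted p = 0.0602 by limma) and passed it under 6 alternatives, among them quantile normalization (adjusted p = 0.0451) and the authors' deposited values (adjusted p = 0.0377).

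By the brightest probe, 5 of the 7 genes changed at oxygen 1 in knockout cells and 4 of 7 in wild type cells, against 39.9% and 38.7% of all 20813 genes tested. Bnip3, Bnip3l, Bcl2l13 and Pink1 rose in both genotypes, where 21.5% and 20.6% of all genes rose, and Bnip1 made the difference. Under starvation 1 of 7 changed in each genotype, Bnip3l, against a background of 13.5% and 12.5%, a share close to that of all genes. Since the rises of Bnip3 and Bnip3l at oxygen 1 were known when the 7 genes were chosen, these counts describe the genes and no more.

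**Figure D3:**
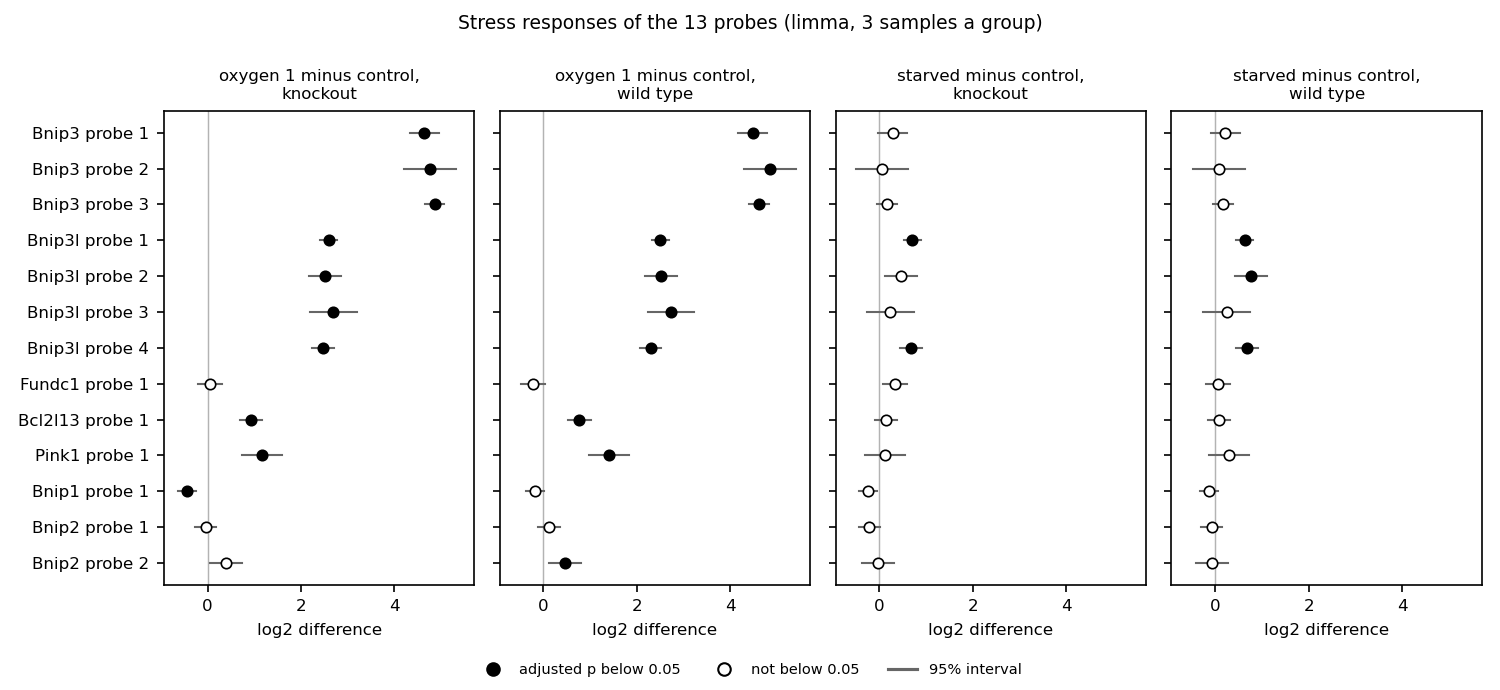
Log2 difference from controls of the 13 probes at oxygen 1 and under starvation, knockout and wild type, each with its 95% interval from limma. The Bnip3 probes lie at 4.48 to 4.86 and the Bnip3l probes at 2.29 to 2.73 at oxygen 1, while under starvation no probe exceeds 0.77.

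The 2 stresses can also be compared directly. Oxygen 1 exceeded starvation for Bnip3 probe 1 by log2 differences of 4.35 in knockout and 4.27 in wild type cells. For Bnip3l probe 1 the excess was 1.89 (limma adjusted p = 7.22e-10) in knockout and 1.86 (limma adjusted p = 8.32e-10) in wild type cells. Bcl2l13 was higher at oxygen 1 by 0.79 (limma adjusted p = 5.95e-05) and 0.69 (limma adjusted p = 0.000179) log2 units, knockout before wild type.

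Pink1 was higher at oxygen 1 than under starvation by log2 differences of 1.04 (limma adjusted p = 0.000911) in knockout and 1.11 (limma adjusted p = 0.000546) in wild type cells. Within the 2 slides that held both knockout groups the Pink1 value was 0.16 and 1.61, a wide range around the pooled one. Thus 4 of 7 genes differed between the stresses in each genotype, against 37.2% of all genes in knockout and 38.2% in wild type cells. Fundc1 leaned the other way, with -0.29 (adjusted p = 0.069 by limma) and -0.28 (adjusted p = 0.0846 by limma), and did not pass. The knockout value passed without wild type oxygen 1 replicate 2 (adjusted p = 0.0393) or replicate 3 (adjusted p = 0.0426), and the wild type value was -0.40 (adjusted p = 0.0195) without wild type oxygen 1 replicate 3.

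Loss of PHD3 did not detectably alter any of the 7 genes. In each of the 3 conditions 0 of 13 probes passed the test between knockout and wild type cells, against a background of 0% of all probes. At an unadjusted p below 0.05 the count was also 0 of 13 in each condition and for each difference of responses. The log2 differences ran over -0.18 to 0.20 at oxygen 1, -0.27 to 0.13 in starved cells and -0.15 to 0.14 in controls. The 95% intervals of the 13 probes at oxygen 1 all lay within -0.69 to 0.42, those in starved cells within -0.61 to 0.51 and those in controls within -0.59 to 0.57.

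For Bnip3 at oxygen 1, probe 3 was higher in the 3 knockout samples (1.66, 1.60 and 1.61) than in the 3 wild type samples (1.22, 1.49 and 1.56). Its log2 difference was 0.20, with an unadjusted p of 0.0596 and an adjusted p of 1 by limma. Probe 1 overlapped between the genotypes there, with a log2 difference of 0.12 (95% interval -0.19 to 0.42). Within 3 slides, each with 1 sample of either genotype at oxygen 1, the difference was -0.39, 0.28 and 0.65. Its sign thus changed between pairs, where slide and sample cannot be told apart. Genotype groups also did not overlap for Bcl2l13 at oxygen 1 (knockout higher), and in controls for Bnip3l probe 1 and Fundc1 (knockout lower) and Bnip1 (knockout higher). The share of such separations over all probes is not given here.

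Responses were also compared between the genotypes. The knockout minus wild type difference in the response to oxygen 1 ran over -0.26 to 0.26 log2 units across the 13 probes, with Bnip1 and Fundc1 at the ends. For the response to starvation it ran over -0.30 to 0.28, with Bnip3l probe 2 and Fundc1 at the ends. None of these passed, and 0 genotype calls and 0 calls on responses appeared under any alternative tried.

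**Figure D4:**
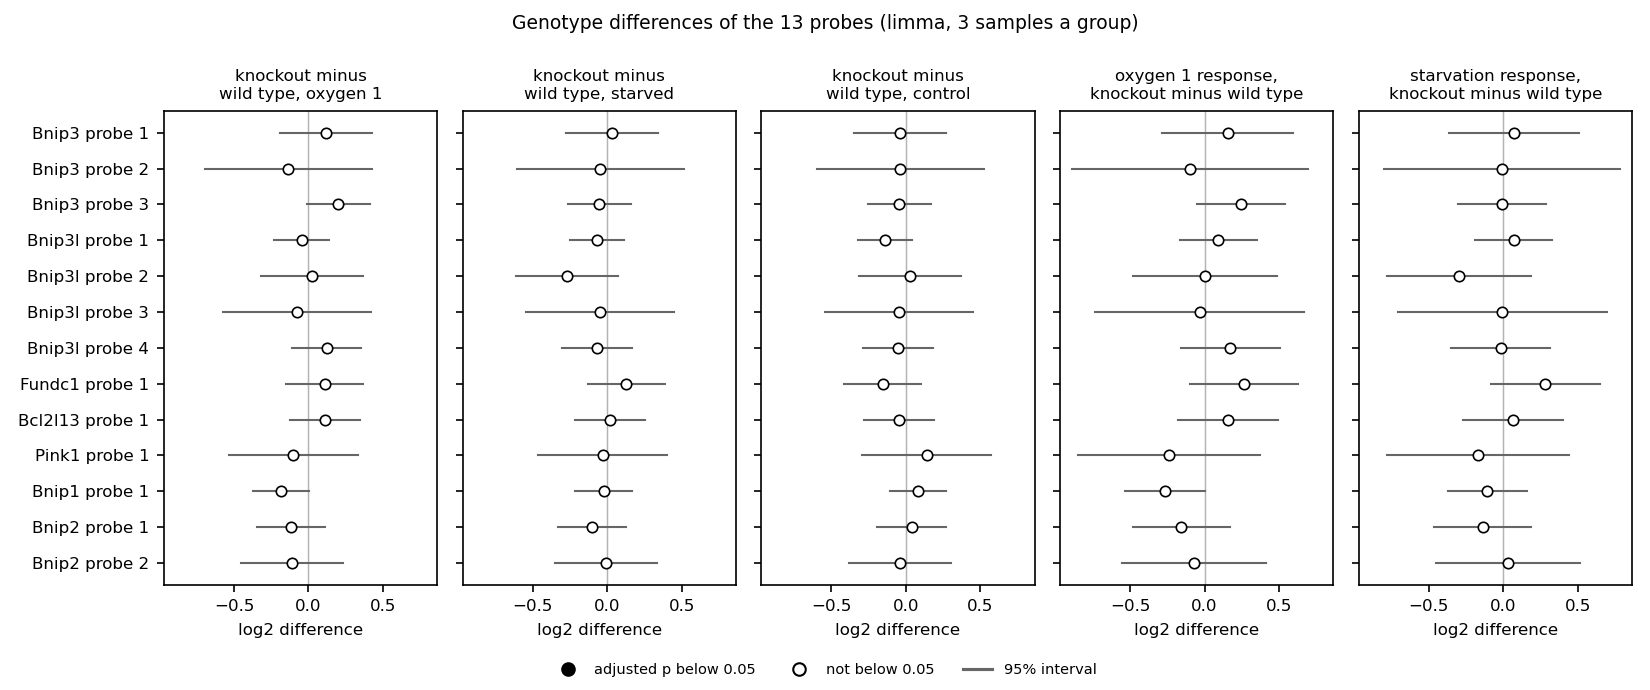
Knockout minus wild type log2 difference of the 13 probes at oxygen 1, in starved cells and in controls, and of their responses to oxygen 1 and to starvation, each with its 95% interval from limma. Every interval crosses 0. The differences lie between -0.27 and 0.20 within the conditions and between -0.30 and 0.28 for the responses.

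The genes around the members were taken from 7 lists of related proteins, and their counts are to be read against the 39.9% of all genes called at oxygen 1 in knockout and 38.7% in wild type cells. Other receptors and ubiquitin adaptors (13 tested) had 2 rises and 3 falls in knockout and 2 rises and 2 falls in wild type cells at oxygen 1, with a median log2 difference of -0.29 and -0.089, against 0.031 and 0.034 over all genes. The 5 and 4 called genes of 13 are close to or below the share over all genes. The knockout rises were 1 under 20 of 28 alternatives, the knockout falls were 6 without knockout oxygen 1 replicate 1, and the wild type rises were 0 without wild type oxygen 1 replicate 2 and 1 without wild type control replicate 2 or 3. Phb2, an inner-membrane receptor, fell in both (log2 differences of -0.61 and -0.53), and the adaptor gene Tax1bp1 rose in both (0.57 and 0.47). The adaptor gene Sqstm1 fell in knockout cells (-0.61), and its wild type value was -0.38 (adjusted p = 0.119 by limma). Chdh, a choline-oxidising enzyme also described as a mitophagy receptor, was not well above background in any sample at oxygen 1, which put it at least 1.87-fold lower in knockout (limma adjusted p = 0.000828) and at least 2.04-fold lower in wild type cells (limma adjusted p = 1.79e-05).

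Among 19 genes of the PINK1 pathway and mitochondrial import, 3 rose and 3 fell in knockout cells at oxygen 1, and 3 rose and 6 fell in wild type cells, with 39.9% and 38.7% of all genes called. The rises were 1 in knockout cells without knockout oxygen 1 replicate 2 or 3 or knockout control replicate 1 or 2, and 1 in wild type cells without wild type oxygen 1 replicate 2, and the wild type falls were 3 with the slide as a block. Vdac1, an outer-membrane channel, rose by log2 differences of 1.495 (limma adjusted p = 1.04e-06) in knockout and 1.55 (limma adjusted p = 7.64e-07) in wild type cells. Parl, the inner-membrane protease that cuts PINK1, had -0.74 (limma adjusted p = 0.00031) and -0.65 (limma adjusted p = 0.000921), and Tomm40, the import pore, had -0.65 and -0.57.

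Of 21 genes of the autophagosome machinery, 8 rose and 2 fell in knockout and 12 rose and 0 fell in wild type cells at oxygen 1, where 21.5% and 20.6% of all genes rose. Their median log2 difference was 0.20 and 0.37, against 0.031 and 0.034 over all genes. The knockout falls were 1 without knockout oxygen 1 replicate 2 or 3 or knockout control replicate 1 or 2, and 1 gene fell in wild type cells without knockout oxygen 1 replicate 1. Atg13 of the initiating kinase complex rose by 1.38 in knockout and 1.24 in wild type cells, and Rb1cc1, its scaffold, by 1.05 and 0.95. Atg9a, a lipid scramblase that feeds the growing membrane, rose by 1.27 and 1.19. Of the LC3 genes, whose products the receptors bind, Map1lc3a rose by 1.05 and 1.03, and Map1lc3b by 0.55 (limma adjusted p = 0.0404) and 0.72 (limma adjusted p = 0.0107). Atg7 fell in knockout cells (-0.68, limma adjusted p = 0.00351), and its wild type value was -0.37 (adjusted p = 0.0827 by limma).

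Of 14 mitochondrial fission and fusion genes, 0 rose and 4 fell in each genotype at oxygen 1, a share called that is below the 39.9% and 38.7% over all genes. Mfn2, an outer-membrane fusion protein, fell by log2 differences of -0.42 in knockout and -0.61 in wild type cells, and Mtfr1 by -0.48 and -0.42. With normexp background correction the falls numbered 0 in knockout and 2 in wild type cells. Leaving out knockout oxygen 1 replicate 2 or 3, or knockout control replicate 1 or 2, left 2 falls in knockout cells, and leaving out wild type control replicate 3 left 2 in wild type cells. The rises became 1 in knockout cells without knockout oxygen 1 replicate 3 or knockout control replicate 3, and 1 in wild type cells without knockout oxygen 1 replicate 3, knockout control replicate 1 or 3 or wild type oxygen 1 replicate 2.

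Among 13 regulators, 2 rose and 1 fell in knockout and 2 rose and 2 fell in wild type cells at oxygen 1, below the 39.9% and 38.7% called over all genes. The knockout rises were 0 without knockout oxygen 1 replicate 2, 1 without knockout oxygen 1 replicate 1 or 3 or knockout control replicate 1 or 2, and 4 with the slide as a block, and the knockout falls were 3 without knockout control replicate 3. The wild type rises were 1 without any 1 of the wild type controls and 4 with the slide as a block, and the wild type falls were 1 without wild type oxygen 1 replicate 2 or 3 or wild type control replicate 2 or 3. Tfeb, a transcription factor of lysosomal genes, fell by log2 differences of -1.03 (limma adjusted p = 0.000115) in knockout and -0.998 (limma adjusted p = 0.000161) in wild type cells, while Hif1a was not called (0.20 and -0.31).

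Of 5 BCL2-family partners of BNIP3, Mcl1 rose (0.45 and 0.44) except under quantile normalization and in the authors' deposited values, and Bcl2 (-1.23 and -0.96) and Bax (-0.35 and -0.31) fell. Their 2 falls became 1 with normexp and without the 3 samples that stood apart in both genotypes. In knockout cells 1 fell without knockout oxygen 1 replicate 3 or knockout control replicate 3. In wild type cells 1 fell with the slide as a block, or without wild type oxygen 1 replicate 1 or 3 or wild type control replicate 1 or 3. Of 7 genes of the syntaxin 18 complex, to which BNIP1 belongs, 0 rose, with 1 fall in knockout and 3 in wild type cells, against 39.9% and 38.7% of all genes called. The knockout falls were 0 with normexp, 3 without wild type oxygen 1 replicate 2 and 2 without wild type oxygen 1 replicate 3 or knockout oxygen 1 replicate 3, and the wild type falls were 1 with normexp. The rises became 1 in both genotypes without knockout control replicate 3, and in wild type cells also without wild type oxygen 1 replicate 3. Nbas, its tethering subunit, fell in both (-0.63 and -0.61).

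Starvation moved few of these genes. In knockout cells Atg13 (log2 difference of 0.54, limma adjusted p = 0.00183) and Opa1, an inner-membrane fusion protein (0.35, limma adjusted p = 0.0198), rose. In wild type cells Atg101 (0.33, limma adjusted p = 0.0181) and Map1lc3a (0.50, limma adjusted p = 0.0453) rose. No other gene of these 7 lists was called under starvation by limma at an adjusted p of 0.05, against the 13.5% and 12.5% of all genes. The 2 wild type rises, both in the autophagosome list, were fewer under 16 of 28 alternatives, down to 0. In knockout cells the fission and fusion rise was lost under 7 alternatives, and the autophagosome rises were more under 10, up to 3. Some list counts of 0 became 1 under alternatives, such as the wild type falls among other receptors and adaptors, under 7.

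**Figure D5:**
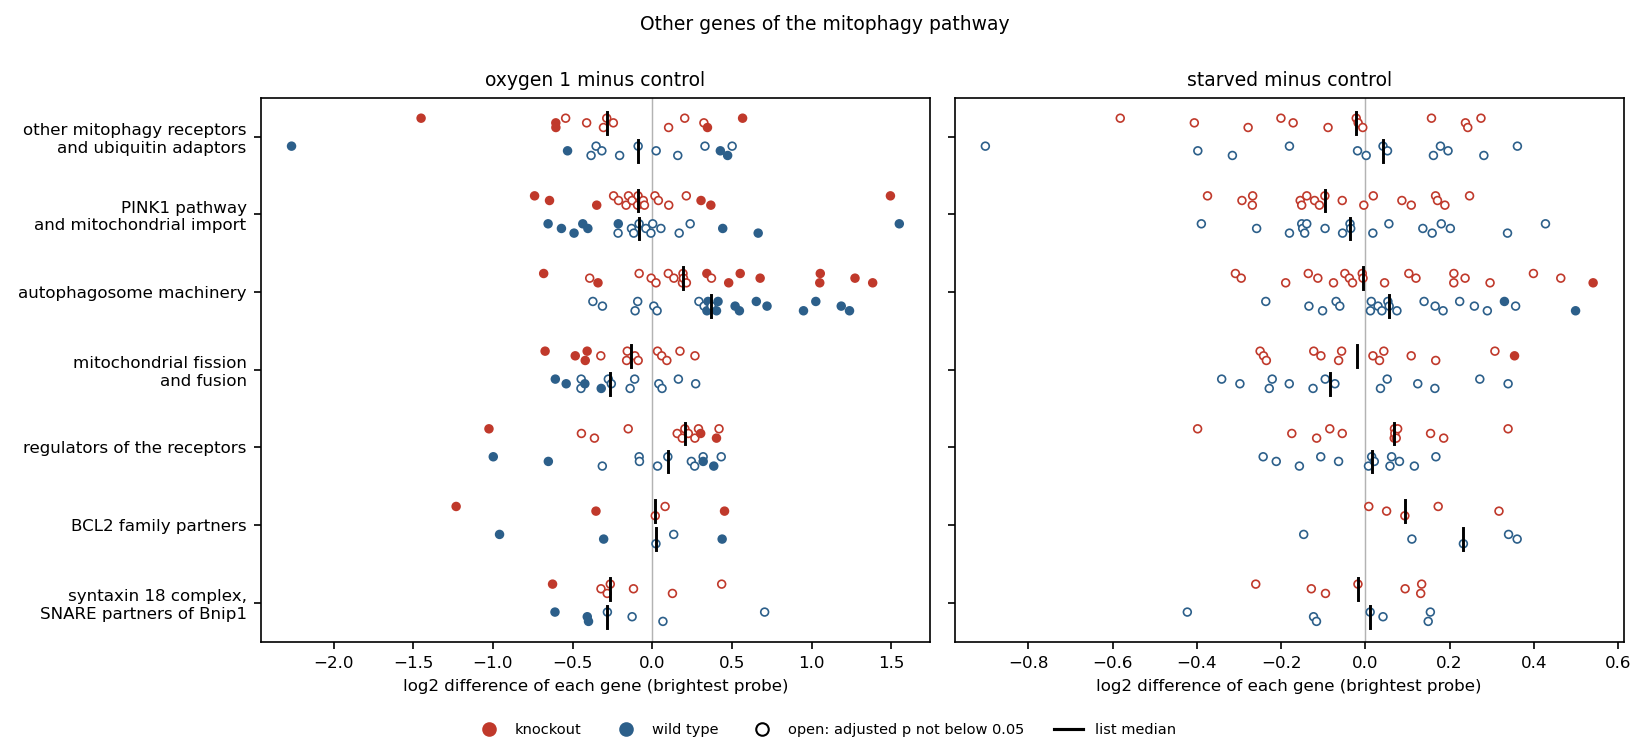
Log2 difference from controls (horizontal axes) at oxygen 1 on the left and under starvation on the right for each tested gene in the 7 related lists, knockout above wild type, with filled points for called genes, open points for the others and a bar at each list's median. At oxygen 1 the called autophagosome genes sit mostly above 0, with Atg13 at 1.38 and 1.24, and the called fission and fusion genes sit below it.

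Likeness of pattern was measured as Pearson's r with probe 1 over the 18 samples, among 11384 named genes, as a description without a test, since all genes share the same arrays. The genes most like Bnip3 were Impa2 (r = 0.9966), Kdm3a (0.9964), Gys1 (0.9961), Fam162a (0.9959) and Abhd18 (0.9953). Those most like Bnip3l were Rgcc (0.9968), Gpat3 (0.9962), Hilpda (0.995), Egln3 (0.9938) and Prelid2 (0.9937). Egln3 is the gene targeted in the knockout mice, and its probe 1 averaged log2 levels of 2.85 in knockout and 2.90 in wild type cells at oxygen 1, -2.41 and -2.30 in starved cells and -3.95 and -3.46 in controls. No source used here says where this probe lies relative to the deleted part, so it does not check the knockout.

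Between the members themselves, Bnip3 and Bnip3l correlated at r = 0.9751 over the 18 samples, Bnip3 and Bcl2l13 at 0.959 and Bnip3 and Pink1 at 0.9323. Bnip1 (-0.6987) and Fundc1 (-0.452) had a negative r with Bnip3. These r values pool the 6 groups, so they follow the group means as well as the spread between samples. Fundc1 was not called at oxygen 1 in either genotype. The closest genes to the remaining members were Esco1 for Bcl2l13 (r = 0.9798), Usp53 for Pink1 (0.9762), Elp6 for Bnip2 (0.9152), Nle1 for Bnip1 (0.9103) and Hhex for Fundc1 (0.8634).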

How the data were processed

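Agilent 1-colour arrays measured RNA in 18 samples of 6 groups, 3 each; 2 samples were hybridised on 2 arrays, which were averaged. The deposited intensity values were background-subtracted and detrended, but not normalized between arrays, by Feature Extraction 10.7.3.1, per the file headers. A table of normalized log2 values that the authors deposited was used as an alternative. They used limma per the submitters' processing notes, which give no version.

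Here, intensities were taken as log2 minus each array's 75th percentile. Spots flagged as non-uniform or population outliers were left out. Probes well above background in at least 3 samples, with at least 2 values in each group, were tested (25372 of 39429), and 0.105% of that matrix was missing. Group means were fitted over all 18 samples with limma 3.58.1 in R 4.3.3 (12 residual and 2.578 prior degrees of freedom), two-sided, with Benjamini-Hochberg adjustment over all probes and a threshold of 0.05. The fit was tested on simulated data. Intervals are 95%. The number of arrays limits the precision. Whether replicates share anything beyond the named 3 mice each is not given, so p-values measure the spread between these samples.

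Probes were named through RefSeq accessions (26049 probes, 66.1%, had a symbol). One pathway gene and 1 erythroid marker are not reported here. Start-region windows are RefSeq GRCm38.p6; probe positions were not used. Named genes are the 7 members, up to 3 genes of each list with the smallest adjusted p past the threshold in each stress comparison, list members whose role is told, and up to 5 genes with the highest r with each member. The members and lists were chosen with earlier results of these data known, the responses of Bnip3 and Bnip3l at low oxygen included. Alternatives included quantile normalization, normexp (offset 50, run on the median signal because the files hold no mean signal) and the deposited values. Others were no filter on dim probes, only probes well above background in all 18 samples, and only the first array of the samples with 2 arrays. Further ones were slide or replicate number as a block, leaving out each sample, and leaving out the 3 samples that stood apart. No label ties replicate numbers across groups. Deviations of same-numbered samples correlated over 0.1 in all 3 pairs in 1 comparison, oxygen 1 against starvation in knockout cells (0.171, 0.175 and 0.162), and in no other.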

Additional observations from a re-analysis of the deposited data

How the results depend on the processing

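In 28 alternative fits, 18 of them leaving out a sample, no member result past the threshold changed direction, while differences near 0 that were not past it changed sign under some, such as Bnip3 probe 2 under starvation in wild type cells (lowest value -0.15). Of 45 member results past the threshold, 39 stayed past it throughout, and of 72 others, 6 passed somewhere. With normexp on the median signal, 0 members changed under starvation in wild type cells (main value 1), since Bnip3l probe 1 gave 0.45 (adjusted p = 0.111 by limma); probe 2 gave 0.58 (adjusted p = 0.0718 by limma), and Bcl2l13 between oxygen 1 and starvation in wild type cells gave 0.45 (adjusted p = 0.0613 by limma). The cause was not tested. Leaving out each sample, 1 to 2 members changed under starvation in knockout cells, 2 without wild type oxygen 1 replicate 2 or 3. Bnip3l probe 2 under starvation in knockout cells passed with the slide as a block (adjusted p = 0.0203 by limma), quantile normalization (0.0293) and the authors' deposited values (0.0422). Bnip2 probe 2 between oxygen 1 and starvation in knockout cells (0.43, adjusted p = 0.0458 by limma) was lost under 15 of 27 alternatives.

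Over all probes, normexp reduced the calls: 5060 against 10208 at oxygen 1 in knockout and 4611 against 9847 in wild type cells, 1060 against 3427 and 1378 against 3179 under starvation, and 4476 against 9615 and 4835 against 9760 between the stresses. Its largest shifts of the median over all probes were 0.188 (starvation, wild type) and -0.237 (oxygen 1 against starvation, wild type). With normexp the autophagosome rises numbered 6 in knockout and 9 in wild type cells, and without the 3 samples that stood apart 9 and 13. With normexp 0 regulators rose in either genotype.

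Over all comparisons, 8 of 27 same-numbered pairs deviated together at a correlation over 0.1, and 9 of 18 samples lay closest to their own number. With the replicate number as a block, 0 of 143 member calls changed, with 5 and 4 members past the threshold at oxygen 1, 1 and 1 under starvation and 4 and 4 between the stresses, knockout before wild type.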

Other observations

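One macrophage marker differed between the genotypes in the same direction in every condition. Lyz2, the gene of lysozyme, averaged log2 levels of 4.41 in knockout and 5.43 in wild type cells at oxygen 1, 5.36 and 6.42 in starved cells and 5.41 and 6.42 in controls. The log2 differences were -1.02, -1.06 and -1.003 (SE 0.16 each), with the 3 knockout samples below the 3 wild type samples each time. The limma adjusted p was 0.394, 0.145 and 0.256, so none passed, and the unadjusted p was 1.7e-05, 1.14e-05 and 2.02e-05. It was singled out after its values were seen.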
